A study of Homo sapiens with 9 samples.

Results

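The tissue inhibitors of metalloproteinases (TIMP1, TIMP2, TIMP3 and TIMP4) and RECK are inhibitors of matrix-degrading metalloproteases. Here they were followed in MDA-MB435S cells, a metastatic melanoma line, by taking all probe sets of the Affymetrix U133 Plus 2.0 array that are annotated to exactly 1 of these 5 genes, of 19775 genes with a probe set of their own. This gave 14 of the 54613 probe sets tested, 1 for TIMP1, 3 for TIMP2, 4 for TIMP3, 1 for TIMP4 and 5 for RECK, and none was shared with another gene. The cells carried an empty vector (EV), wild-type WWOX (WWOX) or the WWOX-WFPA mutant (WFPA), and each group was read on 3 arrays. WWOX is a tumor suppressor that binds partner proteins through its first WW domain, and the WFPA mutation disrupts this binding. All cells were grown in serum-containing DMEM, and the transgenic cells were stable clones made with a lentiviral vector and selected with G418. The sources used here do not give the number of clones behind a group or whether the 3 arrays came from separate cultures, so p-values measure only the spread between these arrays. WWOX is overexpressed from a vector, and clone and construct cannot be told apart.

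A TIMP is a small secreted protein that wedges its amino-terminal end into the active site of a metalloprotease and blocks it. The family members differ in their preferred targets. TIMP1 blocks most secreted matrix metalloproteinases (MMPs) and is weak against membrane-bound ones. TIMP2 also takes part in the activation of pro-MMP2 on the cell surface, together with MMP14. TIMP3 is held in the extracellular matrix and has the broadest range, which includes ADAM17 and ADAMTS aggrecanases, and TIMP4 is mostly made in heart and a few other tissues. RECK is not related to the TIMPs in sequence, is anchored in the cell membrane by a lipid, and restrains MMP2, MMP9 and MMP14. Loss of TIMP3 or RECK expression is known from many invasive tumors, melanoma among them.

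The labels contradict themselves on the vector: they list the wild-type protein for the EV arrays and no protein for the WWOX arrays. The array names call the former EV, with the addition wox+, and the latter wox5, and these names were followed here. At the WWOX probe set 221147_x_at the log2 level was 4.44, 4.83 and 4.21 on the EV arrays, 7.68, 7.56 and 7.68 on the WFPA arrays and 8.46, 8.20 and 7.87 on the WWOX arrays. The EV arrays lay lowest here, and likewise at 219077_s_at and at 223868_s_at, the WWOX probe set with the highest mean. At 223868_s_at the group means were 8.94, 10.24 and 10.66 in EV, WFPA and WWOX cells. At the other 2 WWOX probe sets, 210695_s_at and 223747_x_at, the EV arrays did not lie lowest. The means at 210695_s_at were 5.98, 5.98 and 6.11. At 223747_x_at EV cells had the highest mean, with 9.11 against 8.38 in WFPA and 8.87 in WWOX cells. Of 8 melanocytic markers measured, the transcription factor MITF stood at 11.87, 11.40 and 13.43 in EV, WFPA and WWOX cells (means of log2 intensity). The pigment genes PMEL, MLANA, TYR and TYRP1 had means of 2.21 to 5.91 in all groups, below the array medians of 6.03 to 6.05. WWOX arrays correlated less with each other (Pearson r across probe sets 0.987 to 0.993) than EV arrays (0.994 to 0.996) or WFPA arrays (0.996 for all pairs). A difference in a bulk culture can come from a change in the share of cells or in the RNA per cell, and these cannot be told apart.

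TIMP3 was the only member that differed between all 3 groups of cells at 2-fold and a limma adjusted p under 0.05. To show what lies in front of it, the 250 bases upstream of its start in the RefSeq annotation (GRCh38.p14, chr22:32801455-32801704, plus strand) are given beside those of TIMP1 (chrX:47582186-47582435, plus strand) and RECK (chr9:36036663-36036912, plus strand), members whose levels did not part the groups in this way. Letters in capitals mark GC boxes (GGGCGG, or CCGCCC where it lies on the other strand), a motif bound by Sp1-type factors.
TIMP3: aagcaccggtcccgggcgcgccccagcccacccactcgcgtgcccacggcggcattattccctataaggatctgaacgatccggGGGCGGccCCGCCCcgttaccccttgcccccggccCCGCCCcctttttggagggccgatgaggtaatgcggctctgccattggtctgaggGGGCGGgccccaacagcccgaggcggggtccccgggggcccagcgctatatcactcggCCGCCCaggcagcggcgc
TIMP1: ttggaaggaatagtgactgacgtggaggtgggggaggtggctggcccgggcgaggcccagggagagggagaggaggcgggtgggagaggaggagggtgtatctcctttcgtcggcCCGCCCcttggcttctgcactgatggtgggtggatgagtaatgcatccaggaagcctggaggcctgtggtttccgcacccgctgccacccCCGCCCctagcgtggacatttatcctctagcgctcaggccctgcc
RECK: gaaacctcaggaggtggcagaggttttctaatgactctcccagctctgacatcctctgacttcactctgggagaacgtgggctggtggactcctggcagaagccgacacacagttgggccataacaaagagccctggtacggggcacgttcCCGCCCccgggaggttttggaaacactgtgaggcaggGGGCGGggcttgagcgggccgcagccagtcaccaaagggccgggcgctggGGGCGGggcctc
The window of TIMP3 holds 5 GC boxes, that of RECK 3, that of TIMP1 2 and that of TIMP4 1. No window was available for TIMP2. Of 35116 RefSeq promoter windows of the same length, 42.6% hold at least 1, and the share with as many as TIMP3 was not counted. TIMP3 also has 26 CpG dinucleotides there, more than 80.4% of these windows, against 12 each for TIMP1 and RECK and 11 for TIMP4. The AP-1 motif TGANTCA, which 6.57% of windows hold, and the motif CACGTG bound by MITF, which 6.34% hold, were searched on both strands and match none of the 4 windows. The SOX motif ACAAAG has 1 match, in RECK, and 13.7% of windows hold it. These are matches of letters and say nothing of binding in these cells.

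TIMP3, the matrix-bound inhibitor, rose in steps from EV to WFPA to WWOX cells at all 4 of its probe sets. At 201148_s_at, the one with the highest mean, the log2 level was 8.77, 8.95 and 8.73 on the EV arrays, 10.26, 10.42 and 10.42 on the WFPA arrays and 12.15, 12.13 and 12.02 on the WWOX arrays. The 3 groups did not overlap at this probe set. WWOX cells were 9.71-fold above EV cells (log2 difference 3.28, limma adjusted p = 2.22e-07), with a standard error (SE) of 0.0961. WWOX cells were 3.32-fold above WFPA cells (1.73, SE 0.0961, limma adjusted p = 6.17e-06), and WFPA cells were 2.92-fold above EV cells (1.55, SE 0.0961, limma adjusted p = 3.84e-05). Among 19775 genes read at their brightest probe set, this placed TIMP3 56th by rise of WWOX over EV cells, 178th by rise of WWOX over WFPA cells and 136th by rise of WFPA over EV cells.

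The other TIMP3 probe sets had the same order of groups. At 201150_s_at the log2 level was 7.80, 7.65 and 7.79 on EV arrays, 9.89 on each of the 3 WFPA arrays and 11.44, 11.36 and 11.07 on WWOX arrays. This was the largest difference of WWOX from EV cells among the member probe sets, 11.6-fold (log2 difference 3.54, SE 0.107, limma adjusted p = 2.36e-07). At 201147_s_at it was 8.17, 8.53 and 8.32 on EV arrays, 9.54, 9.52 and 9.49 on WFPA arrays and 11.22, 11.08 and 11.04 on WWOX arrays. The WWOX cells lay 6.84-fold above EV and 3.02-fold above WFPA cells here. At 201149_s_at the level was 5.67, 5.58 and 5.95 on EV arrays, 6.66, 7.03 and 6.85 on WFPA arrays and 8.44, 8.54 and 7.38 on WWOX arrays. At this probe set WWOX replicate 3 lay closer to the WFPA arrays than to the other two WWOX arrays, though still above them. The WFPA cells covered 42.5%, 47.2%, 46.7% and 60.5% of the log2 distance from EV to WWOX cells at 201147_s_at, 201148_s_at, 201149_s_at and 201150_s_at. The probe sets thus gave different sizes for the step from EV to WFPA, 1.11 to 2.14 log2 units, and closer ones for the step from WFPA to WWOX, 1.27 to 1.73. A difference was called where it reached 2-fold with a limma adjusted p under 0.05, and all 4 rises were called in each comparison. That of WFPA over EV cells at 201149_s_at (log2 difference 1.11, SE 0.277, limma adjusted p = 0.0468) lost its call in 6 of 9 fits without 1 array, those without any one of the EV or WFPA arrays. The differences over these 9 fits were 1.02 to 1.22 and the limma adjusted p-values 0.00225 to 0.158. That of WWOX over WFPA cells at this probe set (1.27, limma adjusted p = 0.0142) lost it in 1 of 9, without WFPA replicate 1, where the difference was 1.17.

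**Figure D1:**
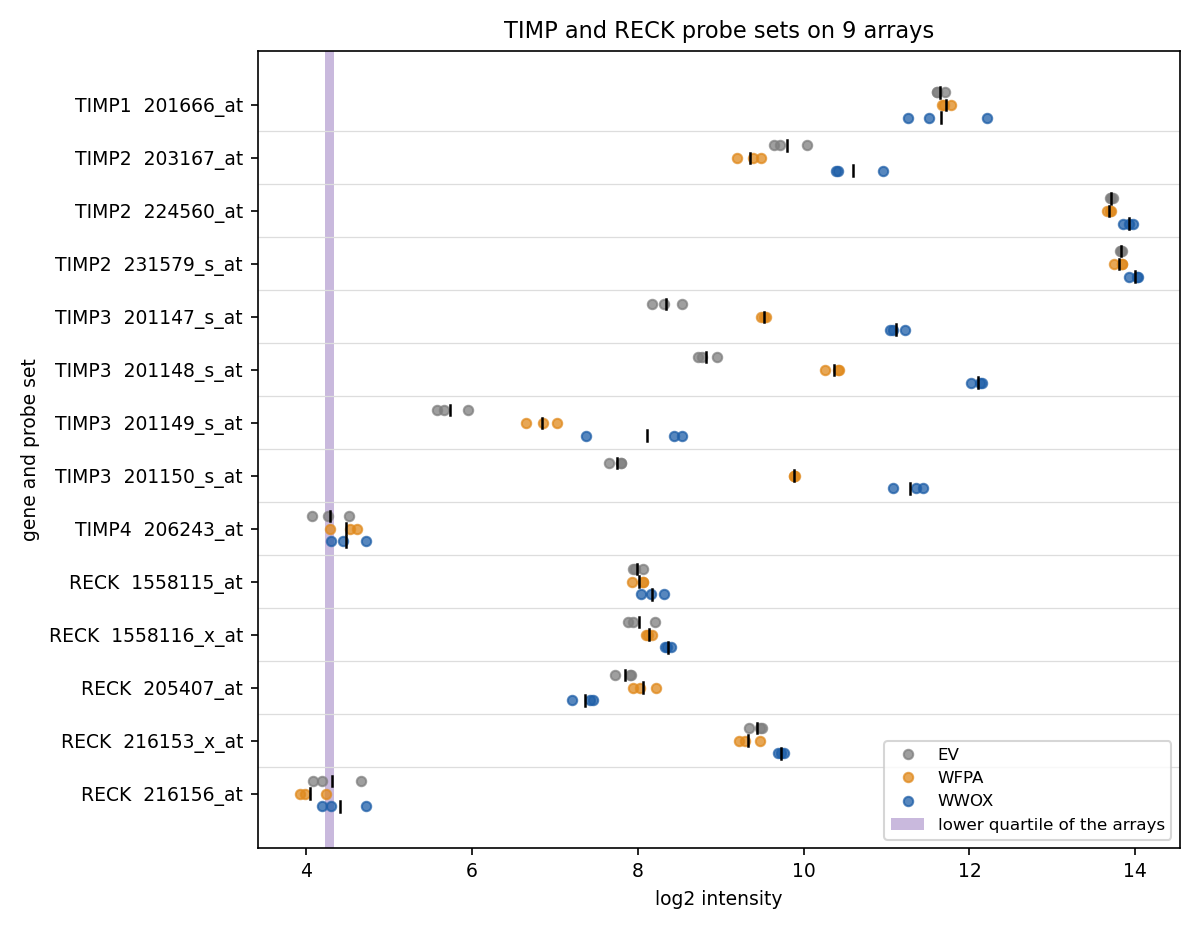
Log2 intensity (x axis) of the 14 probe sets of TIMP1, TIMP2, TIMP3, TIMP4 and RECK (y axis), with 1 point per array and a black bar at the mean of 3 arrays, for EV, WFPA and WWOX cells; the violet band is the range of the lower quartiles of the arrays (4.23 to 4.34). At the 4 TIMP3 probe sets the groups stand apart in the order EV, WFPA, WWOX, and at TIMP4 206243_at and RECK 216156_at they lie at the band.

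TIMP2, which both blocks MMP2 and helps to activate it, was read differently by its 3 probe sets. At 203167_at the log2 level was 9.71, 9.65 and 10.04 on EV arrays, 9.48, 9.39 and 9.19 on WFPA arrays and 10.41, 10.40 and 10.96 on WWOX arrays. The WWOX arrays lay above all others and the WFPA arrays below all others. WWOX cells were 2.35-fold above WFPA cells (log2 difference 1.23, SE 0.174, limma adjusted p = 0.00156), and this rise was called. Against EV cells the difference was 0.79 (SE 0.174, limma adjusted p = 0.0185), which is under 2-fold, and WFPA cells differed from EV cells by -0.44 (limma adjusted p = 0.202). Against the mean of both other groups the rise was 1.01 (SE 0.150, limma adjusted p = 0.00206), just past 2-fold. It was under 2-fold in 4 of 9 fits without 1 array, with 0.83 without WWOX replicate 3, 0.97 without EV replicate 2, 0.97 without WFPA replicate 3 and 0.99 without EV replicate 1.

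At 231579_s_at the TIMP2 level was 13.83, 13.82 and 13.84 on EV arrays, 13.84, 13.84 and 13.74 on WFPA arrays and 14.03, 14.02 and 13.93 on WWOX arrays. At 224560_at it was 13.73, 13.70 and 13.70, then 13.71, 13.69 and 13.66, then 13.92, 13.98 and 13.86 on EV, WFPA and WWOX arrays. On both, all WWOX arrays were above all others, by small amounts. WWOX cells differed from the mean of EV and WFPA cells by 0.18 at the former (95% interval 0.02 to 0.33, limma adjusted p = 0.113). At the latter the difference was 0.22 (0.07 to 0.37, limma adjusted p = 0.0519), and neither passed the adjusted p in the main fit. Both passed it without variance moderation and with a prior variance that follows intensity. The latter also passed with dim probe sets left out, after quantile normalization and without WWOX replicate 3. Neither passed with the replicate block, a robust prior or median centring, and both stayed under 2-fold throughout. The highest value of any probe set was 15.1 to 15.2 on the 9 arrays, and whether signals near it were compressed was not tested. The 3 probe sets of TIMP2 thus shared the direction for WWOX cells and not its size.

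TIMP1, the inhibitor of most secreted MMPs, did not part the groups. Its log2 level was 11.61, 11.71 and 11.61 on EV arrays, 11.78, 11.69 and 11.67 on WFPA arrays and 11.26, 11.51 and 12.22 on WWOX arrays. The WWOX arrays lay on both sides of all the others, with an SD of 0.497 against 0.0572 in EV and 0.055 in WFPA cells. The difference of WWOX from EV cells was 0.02 with a 95% interval of -0.44 to 0.49 (limma adjusted p = 0.963). Without WWOX replicate 3 the difference from the mean of EV and WFPA cells, -0.02 with all arrays, was -0.29 and was not called either (limma adjusted p = 0.0677). TIMP4, the member known from heart, had levels of 4.52, 4.07 and 4.27 on EV arrays, 4.54, 4.29 and 4.62 on WFPA arrays and 4.30, 4.45 and 4.72 on WWOX arrays. These overlapped and lay close to the lower quartile of the arrays (4.23 to 4.34), where the files give no measure of background.

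RECK, the membrane-anchored inhibitor, had probe sets that moved in opposite directions in WWOX cells. At 205407_at its log2 level was 7.91, 7.72 and 7.92 on EV arrays, 7.94, 8.21 and 8.02 on WFPA arrays and 7.46, 7.42 and 7.21 on WWOX arrays. Here all WWOX arrays were below all others, with a difference of -0.49 from EV cells (SE 0.112, limma adjusted p = 0.0228) and of -0.70 from WFPA cells (SE 0.112, limma adjusted p = 0.00324). At 216153_x_at, the RECK probe set with the highest mean, the level was 9.47, 9.34 and 9.49 on EV arrays, 9.22, 9.47 and 9.29 on WFPA arrays and 9.69, 9.76 and 9.73 on WWOX arrays. Here all WWOX arrays were above all others, with a difference of 0.29 from EV cells (SE 0.0939, limma adjusted p = 0.0799) and of 0.40 from WFPA cells (SE 0.0939, limma adjusted p = 0.0199). None of these differences reached 2-fold. In fits without 1 array the limma adjusted p against EV cells at 205407_at was 0.027 to 0.0835. At 1558116_x_at the WWOX arrays, at 8.35, 8.41 and 8.32, also lay above the EV arrays (7.88 to 8.21) and the WFPA arrays (8.10 to 8.18), with an adjusted p of 0.0551 against EV and 0.162 against WFPA cells from limma. At 1558115_at the groups overlapped, at 7.92 to 8.31. At 216156_at they overlapped as well, at 3.92 to 4.72, near the lower quartile of the arrays. The suffix x in a name marks a probe set whose probes can also match other transcripts, and which part of RECK each set reads is not given in the files. No single direction for RECK can therefore be given from these arrays.

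**Figure D2:**
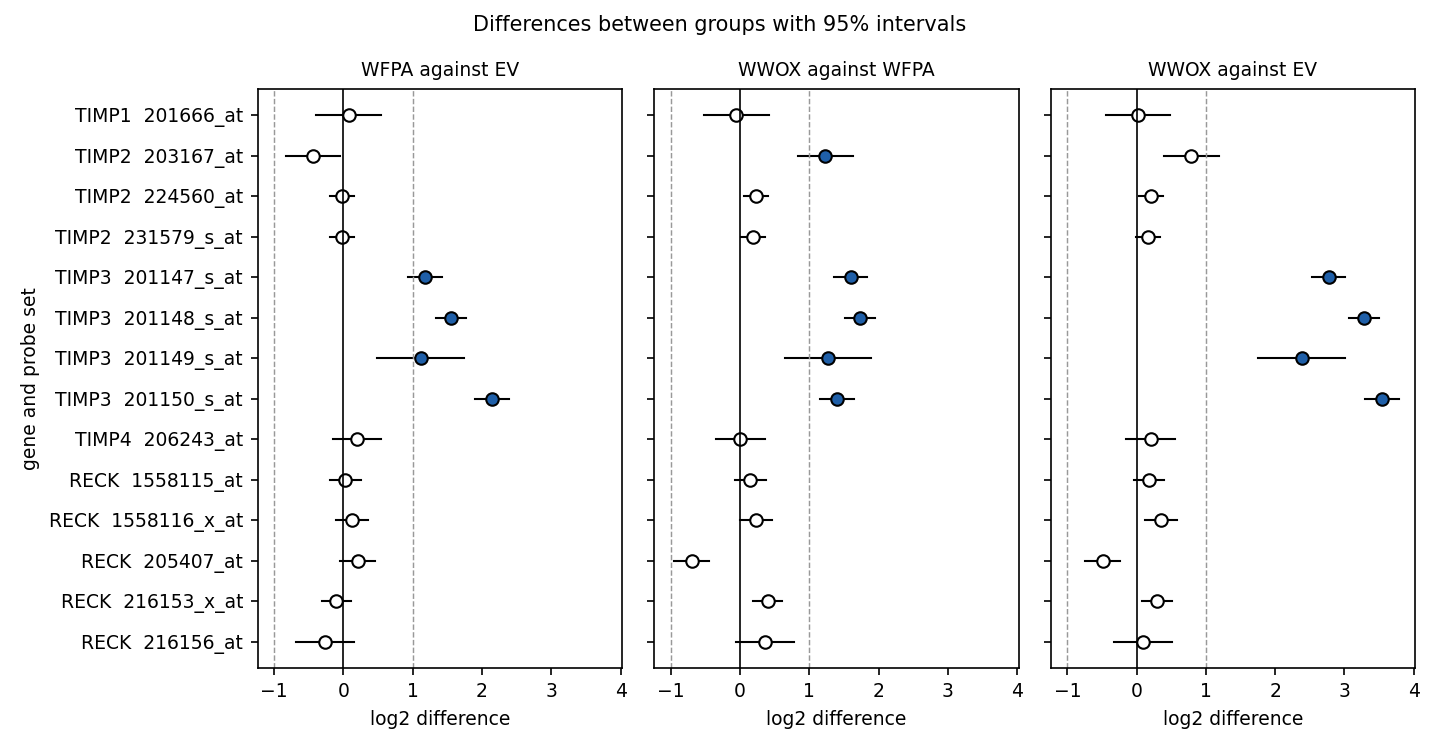
Log2 difference between groups (x axis) at the 14 probe sets (y axis) for WFPA against EV, WWOX against WFPA and WWOX against EV cells, with the 95% interval from limma; filled points were called, and dashed lines mark 2-fold. The 4 TIMP3 probe sets are filled in all 3 panels, and the TIMP2 probe set 203167_at, at 1.23, in that of WWOX against WFPA only.

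Counted over the 14 probe sets, 5 were called higher and none lower in WWOX cells against the mean of EV and WFPA, where 1.46% of all probe sets were called higher. Against EV cells 4 were higher (1.66% of all), against WFPA cells 5 (1.51% of all), and 4 were higher in WFPA than in EV cells (1.26% of all). The 4 TIMP3 probe sets read the same gene and make up these counts but for the TIMP2 probe set 203167_at. The study's methods set a 4-fold limit and name Bonferroni for the FDR. Only their fold limit was taken here, with the adjusted p as before. At 4-fold, 3 stayed called against the mean of both groups (0.491% of all probe sets called higher at this limit) and 4 against EV cells (0.56%). None stayed called against WFPA cells (0.463%), and 1 did in WFPA against EV cells (0.262%). With the adjusted p alone and no fold limit, 6 were higher and 1 lower against the mean of both groups (16.3% of all probe sets called in either direction), and 5 were higher and 1 lower against EV cells (11.8%). By the same rule 6 were higher and 1 lower against WFPA cells (16.3%), and 4 were higher in WFPA than in EV cells (6.64%). The median difference over the 14 probe sets was 0.25 for WWOX against EV, 0.30 for WWOX against WFPA and 0.10 for WFPA against EV cells, beside 0.02, 0.05 and -0.04 over all probe sets. The comparisons share arrays, so that these counts are not independent.

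None of the 3 genes measured that enclose a TIMP gene was called in any comparison. In the RefSeq annotation TIMP1 lies inside the synapsin gene SYN1, TIMP3 inside SYN3 and TIMP4 inside SYN2. Synapsins coat synaptic vesicles. SYN3, the gene around TIMP3, had log2 levels of 4.80, 4.58 and 4.82 on EV arrays, 5.02, 4.90 and 4.88 on WFPA arrays and 5.18, 5.19 and 5.64 on WWOX arrays. The groups had the order of TIMP3 without overlap, and the difference of WWOX from EV cells was 0.60 (SE 0.137, limma adjusted p = 0.0219), under 2-fold and beside 3.28 for TIMP3. WWOX cells differed from WFPA cells by 0.40 (limma adjusted p = 0.0829) and WFPA from EV cells by 0.20 (limma adjusted p = 0.49) at SYN3. SYN1 and SYN2 differed between WWOX and EV cells by 0.23 (limma adjusted p = 0.284) and 0.29 (limma adjusted p = 0.419). All levels of SYN2 and SYN3 lay under the array medians of 6.03 to 6.05, and their signal over background was not tested.

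The genes whose levels over the 9 arrays were most like those of TIMP3 were MIR3681HG and LINC00520, both long noncoding RNAs, then SCRG1, a secreted protein of cartilage and brain, ARHGDIB, and SNAI2, a transcription factor of neural crest and mesenchymal cells. After each was centred on its own mean, their root mean square differences from TIMP3 were 0.175, 0.219, 0.300, 0.341 and 0.341 log2 units. All had higher means in WFPA than in EV cells, by 1.21 to 2.14, and reached 2.76 to 3.31 above EV cells in WWOX cells. With 3 groups of 3 arrays, likeness here means a similar size of both steps. TIMP3 was the only member called at its brightest probe set, so no such genes are given for the others.

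**Figure D3:**
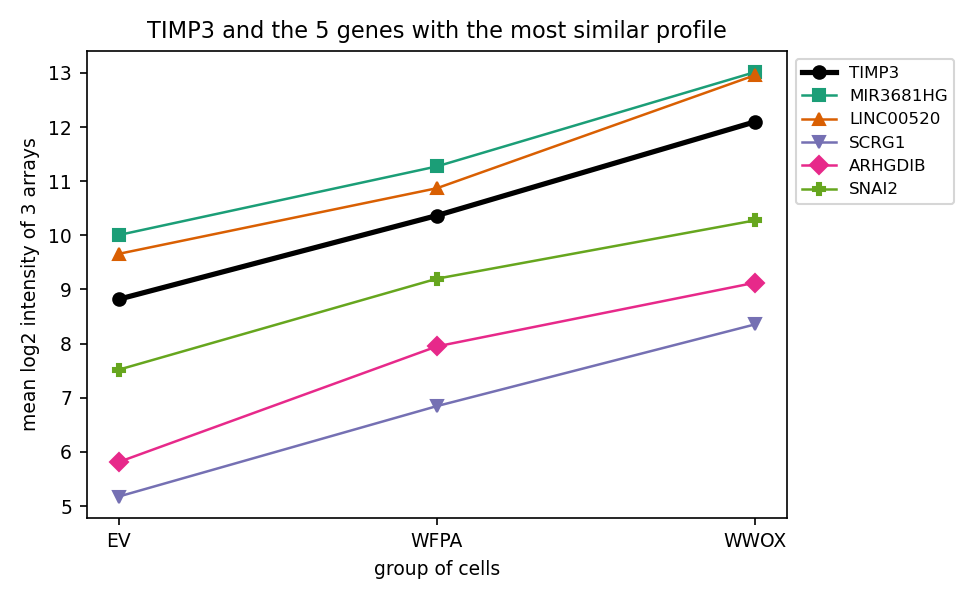
Mean log2 intensity of 3 arrays (y axis) in EV, WFPA and WWOX cells (x axis) for TIMP3 at 201148_s_at and the 5 genes with the most similar profile. TIMP3 goes from 8.82 to 10.37 to 12.10, and the others run close to parallel with it.

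Markers of other cell types were read beside TIMP3, which fibroblasts also make. All marker counts are for WWOX cells against the mean of the other groups, where 4.01% of all genes were called in either direction. Of 10 fibroblast markers LUM, FAP and COL1A2 were called higher and none lower. The mean log2 level over the list was 5.03 to 5.15 on EV arrays, 5.30 to 5.44 on WFPA arrays and 5.98 to 6.04 on WWOX arrays. COL1A2, a collagen I chain, had the group order of TIMP3, with means of 5.74, 7.27 and 7.86, and the actin ACTA2 had 5.43, 6.53 and 6.55. LUM and FAP had means under the lower quartiles of the arrays in both EV and WFPA cells (2.03 and 2.07, 4.19 and 4.10) and were at 6.41 and 5.77 in WWOX cells. The other 6, COL1A1, COL3A1, DCN, PDGFRA, PDGFRB and THY1, had no called difference in any comparison. Of 8 melanocytic markers SOX10, S100B, S100A1 and MITF were higher. The mean level over all 8 melanocytic markers was 5.91 to 5.94 on EV, 5.99 to 6.11 on WFPA and 7.95 to 8.16 on WWOX arrays. Of 7 epithelial markers CDH1, KRT18 and KRT8 were lower in WWOX cells (list mean 6.79 to 7.02, 7.25 to 7.32 and 6.48 to 6.53), CDH1 through the WFPA arrays alone (means of 4.67, 7.78 and 4.54). Of 4 leukocyte markers PTPRC was lower, with means of 9.88, 7.67 and 5.48 in EV, WFPA and WWOX cells. The mean over the leukocyte list was 5.67 to 5.69, 5.08 to 5.25 and 4.44 to 4.82 on these arrays. Of 5 endothelial markers none was called (list mean 5.03 to 5.22, 5.01 to 5.17 and 5.24 to 5.38). The part of these in the level of TIMP3 was not tested.

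Metalloproteases of the MMP, ADAM and ADAMTS families, in which the TIMPs and RECK have their targets, went both ways. Whether a TIMP or RECK inhibits each listed gene's product was not tested. Of 35 metalloproteases measured, 2 were higher and 4 lower in WWOX cells against the mean of the other groups, where 4.01% of all genes were called. Against EV cells 2 were higher and 4 lower (3.9% of all genes), against WFPA cells 2 were higher and 3 lower (4.73%), and in WFPA against EV cells none was higher and 2 were lower (2.23%). The median difference of WWOX from EV cells over the list was 0.13, beside 0.03 over all genes. The interstitial collagenase MMP1 ran against TIMP3 in both steps, with log2 levels of 12.21, 12.08 and 12.06 on EV arrays, 9.50, 9.55 and 9.53 on WFPA arrays and 8.42, 8.35 and 8.01 on WWOX arrays. It fell by 2.59 from EV to WFPA cells (SE 0.116, limma adjusted p = 5.39e-06) and by 1.27 from WFPA to WWOX cells (SE 0.116, limma adjusted p = 1.37e-04).
ADAMTS2, which trims procollagens, stood at 9.87, 10.01 and 9.82 on EV arrays, 6.63, 6.83 and 6.80 on WFPA arrays and 6.51, 5.70 and 5.96 on WWOX arrays. It fell by 3.15 from EV to WFPA cells (limma adjusted p = 2.48e-05), most of the way to WWOX cells. The elastase MMP12 was 8.19, 7.95 and 7.70, then 6.99, 7.07 and 6.81, then 4.38, 4.82 and 4.64 on EV, WFPA and WWOX arrays, and it fell by 2.35 from WFPA to WWOX cells (limma adjusted p = 1.85e-05). Its WWOX levels lay near the lower quartiles of the WWOX arrays (4.26 to 4.34), so the size of this fall is limited by signal over background. The collagenase MMP8 was at 3.01 to 3.69 on the EV and WFPA arrays, under their lower quartile, and at 6.06, 5.37 and 6.33 on the WWOX arrays. It was called higher there than in EV cells (limma adjusted p = 1.91e-04), with no size given because the EV level was not shown to be above background.
MMP2 and MMP3 were the other called proteases, and they, with MMP14 and ADAM17, are named here after their values were seen. MMP2, the gelatinase that TIMP2 helps to activate, was 6.73, 6.79 and 6.93 on EV, 6.90, 6.59 and 6.71 on WFPA and 8.10, 8.13 and 8.19 on WWOX arrays, a rise over EV cells of 1.32 (limma adjusted p = 5.82e-05). MMP3 (stromelysin 1) fell by 1.67 from EV to WWOX cells (limma adjusted p = 5e-06). MMP14, which forms the activating complex with TIMP2, differed from EV cells by 0.64 in WWOX cells (limma adjusted p = 0.00447), under 2-fold. ADAM17, a sheddase that TIMP3 blocks, differed between these cells by 0.10 (limma adjusted p = 0.565). From EV to WFPA cells ADAM17 rose by 0.38 (limma adjusted p = 0.0428), under 2-fold. WWOX cells differed from WFPA cells by -0.29 at this gene (limma adjusted p = 0.0695).

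**Figure D4:**
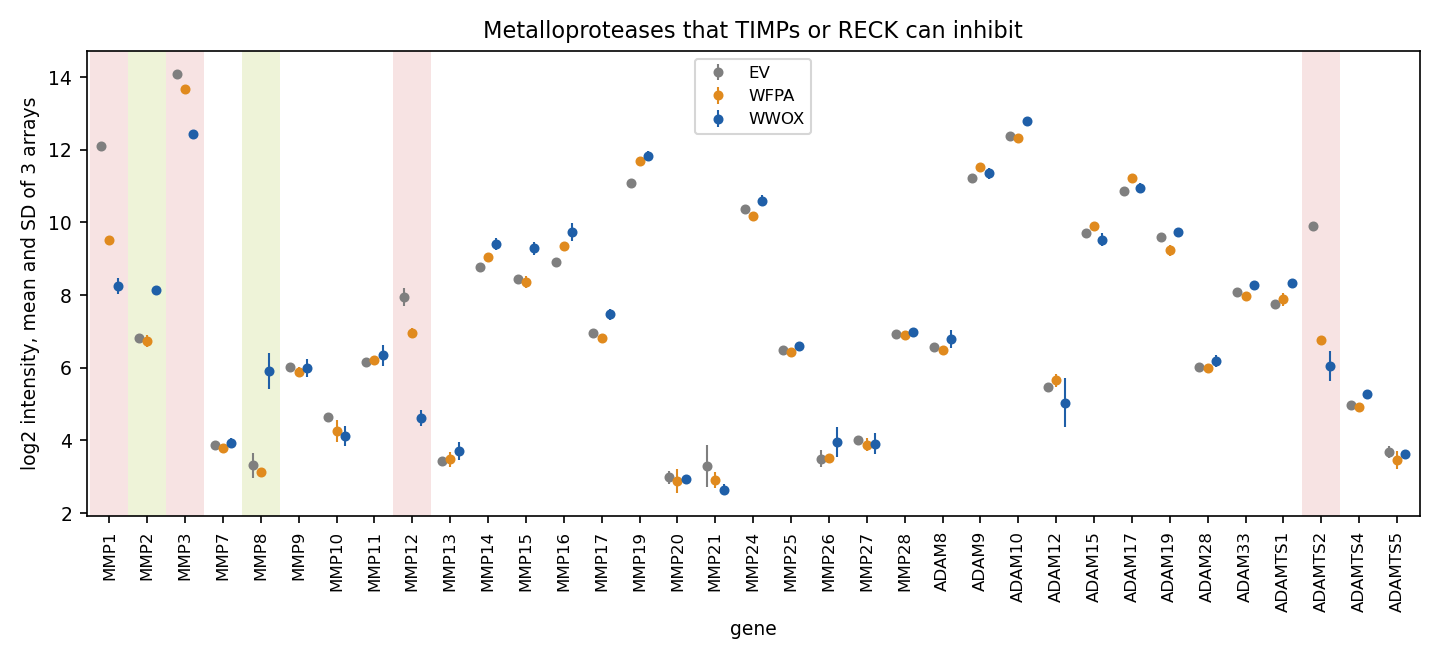
Log2 intensity (y axis, mean and SD of 3 arrays) of the 35 listed MMP, ADAM and ADAMTS genes (x axis) in EV, WFPA and WWOX cells. Inhibition of each by a TIMP or RECK was not tested. Shading marks genes called higher (green) or lower (red) in WWOX cells than in the mean of the others. MMP2 and MMP8 are shaded green and MMP1, MMP3, MMP12 and ADAMTS2 red.

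Among 12 genes for proteins that bind TIMPs or RECK, none was called against the mean of EV and WFPA cells. LRP1, an endocytic receptor that takes up TIMP3 and protease complexes, was called against EV cells alone. It stood at 7.67, 7.71 and 6.39 on EV, 8.20, 8.40 and 8.78 on WFPA and 8.17, 8.97 and 9.84 on WWOX arrays, a rise of 1.74 (SE 0.451, limma adjusted p = 0.0377). The tetraspanin CD63, a receptor for TIMP1, had means of 13.35, 13.38 and 13.51 and was not called. ADGRA2, the partner of RECK in Wnt7 signaling, was at 7.13, 7.39 and 7.67 in EV, WFPA and WWOX cells and differed between WWOX and EV cells by 0.54 (limma adjusted p = 0.00717), under 2-fold. Larger differences, also under 2-fold, were seen at CD82, ITGA3 and FZD4. CD82 rose over EV cells by 0.96 in WFPA (limma adjusted p = 0.0131) and 0.76 in WWOX cells (limma adjusted p = 0.0238). For ITGA3 WWOX cells differed from WFPA cells by -0.78 (limma adjusted p = 0.00139), and for FZD4 by 0.66 (limma adjusted p = 0.0128). Of 12 other inhibitors or modulators of metalloproteases none was called against the mean of both groups. PCOLCE2, which enhances procollagen processing, fell by 1.10 from EV to WFPA cells (limma adjusted p = 0.00107) and by 1.52 from EV to WWOX cells (limma adjusted p = 6.82e-05). LRP1, CD63, ADGRA2, CD82, ITGA3, FZD4 and PCOLCE2 were named after their values were seen.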

How the data were processed

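Total RNA of EV, WFPA and WWOX cells, 3 samples per group, was hybridized by the authors to Affymetrix U133 Plus 2.0 arrays and processed in Partek Genomics Suite. The deposited values are log2 intensities per probe set, normalized by the authors, and the method of background correction and normalization is not given in the sources used here. No further normalization was applied. Of 54675 probe sets, 62 array controls were left out. Gene names come from the platform annotation, updated to RefSeq symbols by gene identifier for 41037 of 41091 probe sets with 1 gene. Where a gene outside the members is given, the probe set with the highest mean over the 9 arrays stands for it. The exception is WWOX, for which all probe sets are named.

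Group means were fitted to all 54613 probe sets in limma 3.58.1 (R 4.3.3), with moderated variances (6 residual and 3.04 prior degrees of freedom), and p-values were adjusted by Benjamini-Hochberg over all of them. The comparisons were WWOX against the mean of EV and WFPA, against EV and against WFPA, and WFPA against EV. Calls needed 2-fold and an adjusted p under 0.05, and the 4-fold limit of the methods was tried beside it. The methods pair that limit with an FDR under 0.05 and name Bonferroni for it. Here the 4-fold limit was used with Benjamini-Hochberg, and Bonferroni was tried at 2-fold only. The fit was tested on simulated data. The number of arrays limits the precision. Members and gene lists were chosen with earlier results of these data known. Named genes are the members, up to 4 called genes per list with the largest difference of WWOX from the mean of EV and WFPA, the synapsin genes, called marker genes and, for each member called at its brightest probe set, the 5 genes nearest in profile. Upstream sequences are from RefSeq (4 of 5 members matched). CEP295NL, MMP23B, DCT and CD68 were listed and not analysed here. Figures were drawn with Python 3.11.15 and matplotlib 3.10.9.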

Additional observations from a re-analysis of the deposited data

How the results depend on the processing

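Of 56 single differences (14 probe sets in 4 comparisons), none that was called under any setting changed direction, and 3 lost a call under one of 17 settings other than another limit: TIMP2 at 203167_at against the mean of EV and WFPA, and TIMP3 at 201149_s_at in WWOX against WFPA and in WFPA against EV cells. Of the counts of called probe sets, Bonferroni adjustment left 3 against the mean of EV and WFPA, 3 against EV cells, 3 against WFPA cells and 2 in WFPA against EV cells, in place of 5, 4, 5 and 4. The 4-fold limit left 3, 4, 0 and 1. At an unadjusted p under 0.05 in limma the counts were 10, 9, 10 and 5 of 14, beside 30.8%, 25.2%, 30.8% and 19.1% of all probe sets. The linear model without variance moderation ended both TIMP3 calls at 201149_s_at. The labels number the replicates of each group alike. Deviations of arrays with the same number correlated by -0.0521 to 0.0348, so no strong shared deviation was seen. Whether samples with the same number were handled together is not known. With the replicate block the counts were 5, 4, 5 and 3, and the call lost was TIMP3 at 201149_s_at in WFPA against EV cells (1.11 on the log2 scale, limma adjusted p = 0.0824). Over all probe sets, Bonferroni adjustment left 603 called of 1766 against the mean of EV and WFPA, 507 of 1798 against EV, 564 of 2173 against WFPA and 204 of 946 in WFPA against EV cells. The 4-fold limit left 412, 463, 512 and 183, and no fold limit gave 8922, 6463, 8885 and 3627. Median centring and quantile normalization of the arrays ended no call of a member. No probe set was annotated to a member together with another gene, so that alternative gave no value. With the mean of all probe sets for each gene, the median difference of WWOX from EV cells over the 35 metalloproteases was 0.10 in place of 0.13. Among the members, TIMP4 and RECK at 216156_at are limited by signal over background. So are MMP8, LUM and FAP in EV and WFPA cells and MMP12 in WWOX cells. SYN2 and SYN3 were dim as well, under the array medians.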
